A study of Saccharomyces cerevisiae with 19 samples.

Results

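In budding yeast, Saccharomyces cerevisiae, the 6 RNA-seq libraries of the strains Pcf11-OE1 and Pcf11-OE2, which overexpress the 3′-end processing factor Pcf11, were compared with the 3 libraries labelled ΔPcf11, for which the labels state that the gene was deleted from the genome. These 9 libraries were taken by their strain labels from the 15 RNA-seq libraries of a series of 19 samples, and no WT library entered the fit, so that whatever all engineered strains share drops out of the comparison. The other RNA-seq libraries are of WT and of Pcf11-AARR, a residue mutant of Pcf11. Their levels are given beside some results below. Every strain had 3 biological replicates per the labels, was grown for 36 h at 30 °C, with antibiotics where needed, and carries both the names S288C and CEN.PK2-1C in its labels. Overexpression was driven by a strong pair (TEF1 promoter, GRS1 terminator) or a weak pair (CDC60 promoter, DIT1 terminator); the labels do not say which pair belongs to which strain, nor how many clones a strain stands for. The 6 overexpression libraries came in another count table than the 3 labelled ΔPcf11 libraries, so a difference between tables and a difference between strains cannot be told apart.

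Pcf11 is a subunit of cleavage factor IA, part of the machinery that cuts a nascent messenger RNA and adds its poly(A) tail. Its CTD-interacting domain binds the tail of RNA polymerase II, and the protein also takes part in releasing the polymerase from the template after cleavage. Budding yeast needs PCF11 for growth. Among the gene groups measured here, those of the cytosolic ribosome are known as a large set that is regulated together with growth.

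Total counts per library ran from 33702086 to 41393382, and 6274 to 6307 named features had at least 1 read. Of 6409 named features 6107 passed the filter on low counts, in which a feature needs about 10 reads in as many libraries as a strain has. The first principal component held 76.3% of the variance and put the labelled ΔPcf11 libraries at -30.0, -41.3 and -41.6 and the 6 overexpression libraries between 10.97 and 24.1. Along the second component, with 9.48%, Pcf11-OE2 replicate 1 at 19.9 and Pcf11-OE1 replicate 3 at 11.5 stood apart from the others of their strains. The authors' mapping table lists 61.85%, 56.43% and 57.01% of reads as mapped for the labelled ΔPcf11 libraries, and mapped shares of the overexpression libraries were not used here. Levels below are CPM, read counts scaled to the library's total after TMM scaling, a call is an edgeR adjusted p under 0.05, and a log2 fold change is overexpression over labelled ΔPcf11 with both overexpression strains weighing equally. A number in parentheses after a gene name is its log2 fold change. In bulk cultures, less RNA in every cell and fewer cells with the RNA cannot be told apart.

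PCF11 itself (YDR228C, chrIV:921441-923806, minus strand, assembly R64) separated the 3 strains without overlap. It counted 12.4, 14.2 and 13.01 CPM in the labelled ΔPcf11 libraries, so that reads of the gene stated to be deleted were present there. Scaled over all 15 RNA-seq libraries, the level was 12.2 to 13.96 CPM in the labelled ΔPcf11 libraries and 13.9 to 17.7 CPM in the 3 WT libraries, which overlap (exact two-sided permutation test p = 0.2, the smallest p possible being 0.1). The overlap rests on labelled ΔPcf11 replicate 2 at 13.96 CPM and WT replicate 2 at 13.93 CPM. WT replicates 1 and 3, at 17.67 and 14.07 CPM, lay above all 3 labelled ΔPcf11 libraries. The comparison is therefore with libraries whose PCF11 level narrowly overlaps that of WT, and not with libraries that lack PCF11 reads. Pcf11-OE1 counted 636, 586 and 572 CPM. Pcf11-OE2 counted 90.7, 68.4 and 72.5 CPM. All overexpression libraries thus lay above all labelled ΔPcf11 libraries, and those of Pcf11-OE1 above those of Pcf11-OE2. The log2 fold change was 4.03 ± 0.14 SE, edgeR adjusted p = 2.72e-07, with 5.50 ± 0.15 for Pcf11-OE1 and 2.55 ± 0.13 for Pcf11-OE2 alone (edgeR adjusted p = 3.71e-08 and 1.64e-05). Between the overexpression strains it differed by 2.95 ± 0.13 (edgeR adjusted p = 5.14e-06). An exact two-sided permutation test over the libraries gave p = 0.0238 for 6 against 3, the smallest p those numbers allow, and 0.1 for each pair of strains, likewise the smallest.

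**Figure D1:**
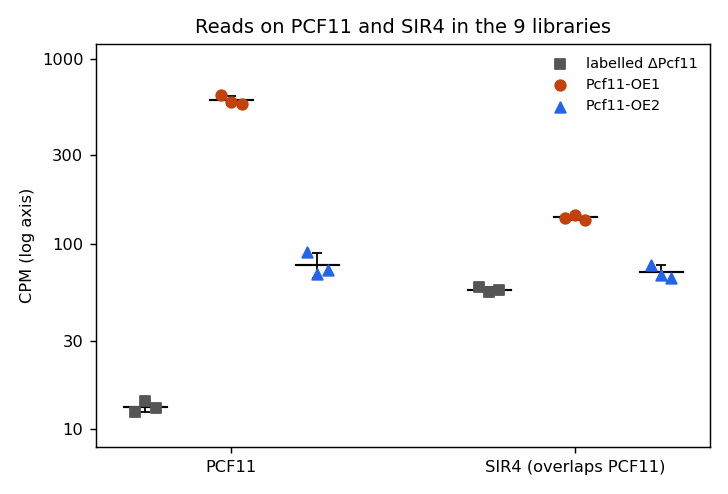
Reads on PCF11 and on SIR4, which overlaps it on the other strand, in CPM on a log axis. Each point is a library, the horizontal line is the mean of a strain and the error bar the SD (n = 3). PCF11 lies at 12.4 to 14.2 in the labelled ΔPcf11 libraries, 68.4 to 90.7 in Pcf11-OE2 and 572 to 636 in Pcf11-OE1, and SIR4 follows the same order of strains over a narrower range.

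SIR4, which encodes a silencing protein of telomeres and mating-type loci, overlaps 28.1% of PCF11 from the other strand. It counted 58.6, 54.6 and 56.5 CPM in the labelled ΔPcf11 libraries, 138, 144 and 135 CPM in Pcf11-OE1 and 77.3, 67.9 and 65.6 CPM in Pcf11-OE2. The 3 strains did not overlap, in the same order as for PCF11, and the log2 fold change was 0.80 ± 0.085 SE, edgeR adjusted p = 2.90e-05. Whether the counting used strand is not given in the sources used here, so reads of one gene counted for the other cannot be told apart. The other genes whose control elements the study names had values in both directions. TEF1 and TEF2, twin genes of the translation factor eEF1A, had log2 fold changes of -0.11 ± 0.12 and -0.01 ± 0.15 and were not called (edgeR adjusted p = 0.43 and 0.94). GRS1, a glycyl-tRNA synthetase, was not called either (log2 fold change 0.19 ± 0.11 SE, edgeR adjusted p = 0.152). CDC60, the cytosolic leucyl-tRNA synthetase, counted 45.6, 33.6 and 46.3 CPM in the labelled ΔPcf11 libraries, 99.9, 65.3 and 61.9 CPM in Pcf11-OE1 and 52.1, 52.4 and 56.2 CPM in Pcf11-OE2. All 6 overexpression libraries lay above the 3 others, with a log2 fold change of 0.61 ± 0.17 SE, edgeR adjusted p = 0.0106. DIT1, which makes a precursor of the spore wall, fell from 37.2 to 54.9 CPM to 16.5 to 21.6 CPM (log2 fold change -1.24 ± 0.13 SE, edgeR adjusted p = 2.30e-05).

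The genomic windows from 250 bases before to 50 bases after the start codon of TEF1 and CDC60 are shown because the study names these promoters as the drivers of the added PCF11. They are the native RefSeq R64 sequences, 5′ to 3′ in the direction of the gene, at chrXVI:700344-700643 on the plus strand and chrXVI:246740-247039 on the plus strand, and the labels do not give the exact stretch used in the strains. No letter is in capitals, as no motif is marked in them.
TEF1: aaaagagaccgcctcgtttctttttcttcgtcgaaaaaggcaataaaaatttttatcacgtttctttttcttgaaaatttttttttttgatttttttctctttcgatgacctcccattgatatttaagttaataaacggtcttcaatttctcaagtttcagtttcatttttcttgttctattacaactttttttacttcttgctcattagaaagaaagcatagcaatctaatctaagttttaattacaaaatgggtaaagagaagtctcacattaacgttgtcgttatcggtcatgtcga
CDC60: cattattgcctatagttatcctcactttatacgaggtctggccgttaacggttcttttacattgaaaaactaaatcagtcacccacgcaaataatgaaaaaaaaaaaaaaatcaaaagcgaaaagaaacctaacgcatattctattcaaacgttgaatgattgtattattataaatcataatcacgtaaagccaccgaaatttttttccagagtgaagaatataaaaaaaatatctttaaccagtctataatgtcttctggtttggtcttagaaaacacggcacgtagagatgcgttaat
Of these 300 bases, 29.7% are G or C in TEF1 and 31.7% in CDC60.

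Across the transcriptome, 1875 features (30.7% of 6107) were called higher and 1832 (30.0%) lower in the overexpression strains, and these shares are the background for every count below. At 2-fold or more, 339 (5.55%) were higher and 711 (11.6%) lower. In 1663 features (27.2%) all 6 overexpression libraries lay above all 3 labelled ΔPcf11 libraries, and in 1559 (25.5%) all lay below. Taken alone, Pcf11-OE1 had 1768 features higher (29.0%) and 1673 lower (27.4%), and Pcf11-OE2 1634 higher (26.8%) and 1619 lower (26.5%). Both strains share the labelled ΔPcf11 libraries, so their calls are given side by side and not counted as 2 independent findings. Against each other, Pcf11-OE1 and Pcf11-OE2 differed in 83 features (1.36%), 73 higher and 10 lower in Pcf11-OE1. The biological coefficient of variation was 0.156.

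Next to PCF11, the genes with the largest rise were a mixed group of mitochondrial, cell surface and metabolic genes, and 4 of them (YAT1, TDA8, FLO9 and ATS1) lie on chromosome I, which is described on its own below. YAT1 encodes a carnitine acetyltransferase that feeds acetyl units to mitochondria. It counted 315, 218 and 187 CPM in the labelled ΔPcf11 libraries, 1485, 1724 and 2447 CPM in Pcf11-OE1 and 1358, 647 and 903 CPM in Pcf11-OE2. All overexpression libraries were higher, from 647 to 2447 CPM (log2 fold change 2.49 ± 0.29 SE, edgeR adjusted p = 5.61e-05). HSP60 encodes the chaperonin that folds proteins in the mitochondrial matrix. It counted 274, 283 and 284 CPM in the labelled ΔPcf11 libraries, 1056, 1058 and 1018 CPM in Pcf11-OE1 and 975, 1128 and 1242 CPM in Pcf11-OE2. The 6 overexpression libraries lay close together and 3.85-fold above the others on average (log2 fold change 1.94 ± 0.11 SE, edgeR adjusted p = 2.96e-06). YAH1, the ferredoxin of mitochondrial iron-sulfur cluster assembly, rose from 10.9 to 13.7 CPM to 39.1 to 56.2 CPM (log2 fold change 1.99 ± 0.15 SE, edgeR adjusted p = 5.60e-06).

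Among surface and wall genes, WSC2, a sensor of cell wall stress, counted 79.2, 77.5 and 88.4 CPM in the labelled ΔPcf11 libraries, 421, 368 and 406 CPM in Pcf11-OE1 and 328, 347 and 305 CPM in Pcf11-OE2. Its overexpression libraries were uniformly high (log2 fold change 2.14 ± 0.10 SE, edgeR adjusted p = 2.63e-06). SIM1, of the SUN family of wall proteins, rose to 124 to 192 CPM from 28.9 to 41.9 CPM (log2 fold change 2.13 ± 0.18 SE, edgeR adjusted p = 8.73e-06), and FLO9, a flocculin that lets cells stick to each other, to 142 to 489.7 CPM from 60.2 to 65.7 CPM (log2 fold change 2.19 ± 0.20 SE, edgeR adjusted p = 1.27e-05). LEU1, the isopropylmalate isomerase of leucine synthesis, counted 53.5, 41.3 and 49.8 CPM in the labelled ΔPcf11 libraries, 276, 228 and 239.8 CPM in Pcf11-OE1 and 161, 119 and 126 CPM in Pcf11-OE2. It was highest in Pcf11-OE1, intermediate in Pcf11-OE2 and lowest in the labelled ΔPcf11 libraries, with no overlap between strains (log2 fold change 1.93 ± 0.14 SE, edgeR adjusted p = 5.60e-06). RKM5, a methyltransferase that acts on a ribosomal protein, had a log2 fold change of 2.21 ± 0.17, and CIP1, a protein that inhibits the G1 cyclin-dependent kinase, one of 1.88 ± 0.23. TDA8 and ATS1 rose by 2.24 ± 0.20 and 2.04 ± 0.092 on the same scale.

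**Figure D2:**
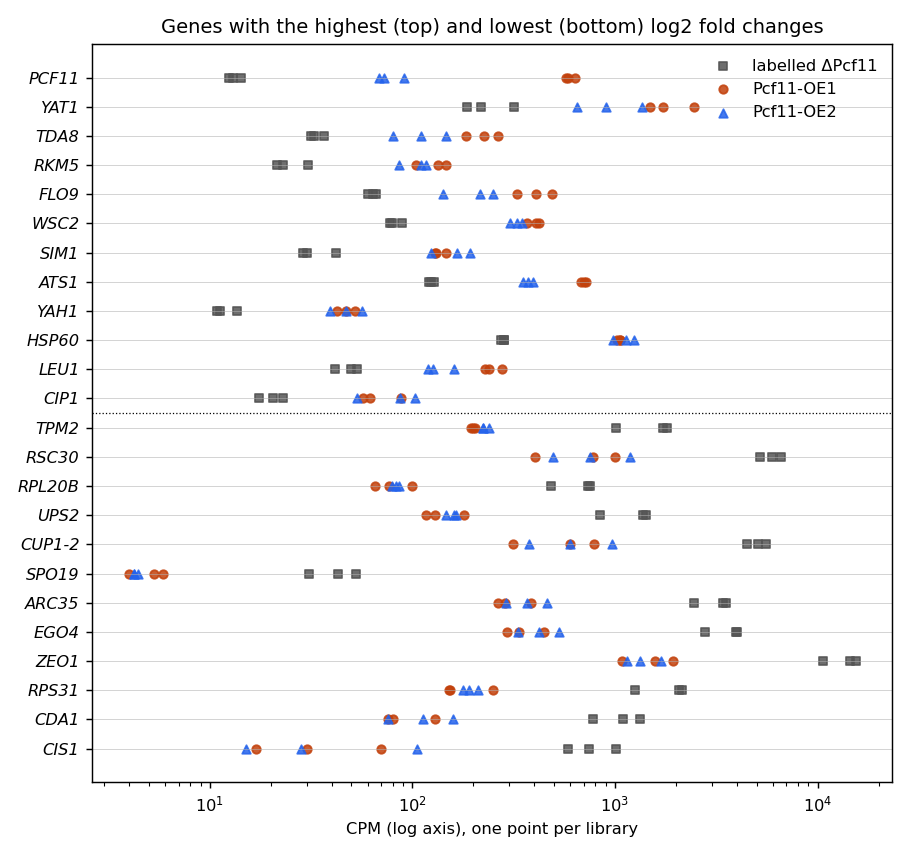
Levels in CPM on a log axis of the 12 genes with the highest and the 12 with the lowest log2 fold change, 1 point for each of the 9 libraries. In each gene the 6 overexpression libraries lie on one side of the 3 labelled ΔPcf11 libraries; PCF11, FLO9, ATS1 and LEU1 are also higher in Pcf11-OE1 than in Pcf11-OE2.

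At the other end, the falls of the 12 lowest of these named genes were larger in fold than the rise of any of them other than PCF11. CIS1, a gene of the response to blocked mitochondrial protein import, had the lowest value, with 588, 742 and 1012 CPM in the labelled ΔPcf11 libraries, 30.3, 16.9 and 69.96 CPM in Pcf11-OE1 and 105, 15.2 and 28.1 CPM in Pcf11-OE2. Its overexpression libraries were all low yet varied among themselves (log2 fold change -4.15 ± 0.57 SE, edgeR adjusted p = 1.64e-04), and 77.8% of the feature overlaps a neighbour. ZEO1, a membrane-associated protein of the cell wall integrity pathway, was among the most abundant transcripts that fell. It counted 10672, 14424 and 15485 CPM in the labelled ΔPcf11 libraries, 1570.5, 1088 and 1942 CPM in Pcf11-OE1 and 1677, 1151 and 1323 CPM in Pcf11-OE2. The drop was 9.29-fold (log2 fold change -3.22 ± 0.21 SE, edgeR adjusted p = 3.51e-06). RPS31, which encodes ubiquitin fused to a small subunit ribosomal protein, counted 1258, 2059 and 2148 CPM in the labelled ΔPcf11 libraries, 250.4, 152 and 152 CPM in Pcf11-OE1 and 211, 178 and 190.5 CPM in Pcf11-OE2 (log2 fold change -3.27 ± 0.20 SE, edgeR adjusted p = 2.96e-06). UPS2, a mitochondrial lipid transfer gene that overlaps RPS31, also fell (log2 fold change -3.02 ± 0.18), and shared reads cannot be separated. The same holds for EGO4 and ARC35, an Arp2/3 complex subunit (log2 fold change -3.20 ± 0.19 and -3.19 ± 0.18), and for CUP1-2, a copper metallothionein with a near-identical copy, and RSC30, a chromatin remodelling subunit (log2 fold change -3.06 ± 0.31 and -2.95 ± 0.30).

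Genes of spore formation and the actin cytoskeleton were also in this group. CDA1, a chitin deacetylase of the spore wall, fell from 781 to 1321 CPM to 75.7 to 158 CPM (log2 fold change -3.35 ± 0.25 SE, edgeR adjusted p = 6.03e-06). SPO19, a meiosis-specific surface protein, counted 30.9, 43.1 and 52.6 CPM in the labelled ΔPcf11 libraries, 5.88, 3.97 and 5.32 CPM in Pcf11-OE1 and 4.43, 4.20 and 4.22 CPM in Pcf11-OE2. It was low in all 6 overexpression libraries (log2 fold change -3.18 ± 0.17 SE, edgeR adjusted p = 2.96e-06). TPM2, the minor tropomyosin, fell from 1009.7 to 1804 CPM to 193 to 239 CPM, by a log2 fold change of -2.83 ± 0.16. RPL20B, a large subunit ribosomal protein with little overlap (12.1%), counted 483, 756 and 736 CPM in the labelled ΔPcf11 libraries, 99.6, 76.2 and 65.3 CPM in Pcf11-OE1 and 86.2, 79.1 and 82.8 CPM in Pcf11-OE2. Its 6 overexpression libraries lay within a narrow range, 8.07-fold below the others (log2 fold change -3.01 ± 0.16 SE, edgeR adjusted p = 2.96e-06).

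RPL20B and RPS31 belong to the proteins of the cytosolic ribosome, a list in which most members fell. Of 139 genes tested 113 were called lower, 6 higher and 20 neither, with a median log2 fold change of -1.08, where 30.0% of all features were called lower and their median was 0.02. At 2-fold or more, 72 were lower and 2 higher. One of the 6 higher members, RPP1 (0.36), encodes a subunit of RNase P and not a ribosomal protein. The others were RPS7B (1.27), RPS9A (1.22), RPL18B (0.37), RPL7B (0.29) and RPL15B (0.28), each the B or A copy of a duplicated pair. RPS9A counted 55.5, 40.2 and 58.96 CPM in the labelled ΔPcf11 libraries, 207, 131 and 79.2 CPM in Pcf11-OE1 and 73.4, 131 and 109 CPM in Pcf11-OE2. Its overexpression libraries all lay above the others but differed among themselves (log2 fold change 1.22 ± 0.30 SE, edgeR adjusted p = 0.0051). Below RPS31 and RPL20B in size of change came RPL41B (-2.70), RPS7A (-2.70) and RPL24A (-2.63). Summed over the list, and scaled over all 15 RNA-seq libraries, ribosomal protein transcripts took 29316, 43749 and 44166 CPM in the labelled ΔPcf11 libraries, 16714, 11325 and 11835 in Pcf11-OE1 and 13711, 13525 and 13679 in Pcf11-OE2. All overexpression libraries were lower; the same sum was 22592 to 24434 in the 3 WT and 19110 to 28074 in the 3 Pcf11-AARR libraries, which lay between.

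The median fall was close in both ribosomal subunits, a median of -1.08 over 82 large subunit and P genes and -1.13 over 57 small subunit genes. Genes with an intron (90, median -1.07) were also close to those without (49, median -1.10), while 228 other nuclear genes with a split coding sequence had a median of -0.08. An intron was read from a coding sequence annotated in several parts, so genes split for another reason can be among the 228. In 37 of 59 duplicated pairs both copies were called lower and in the other 22 pairs one was, and the copies of a pair differed by a median of 0.63 on the log2 scale. RPS7A fell and RPS7B rose; reads of near-identical copies may have been split by the counting, so values of single copies are uncertain. Strain by strain, 108 of the list were lower in Pcf11-OE1. The size moved with base composition: with a correction for GC content and length, chosen after seeing the data, the median was -0.55, with 85 lower and 12 higher. Of the 139 genes, 48 overlap another feature by more than 25% of their length. Without such features fewer genes were tested, and 75 were lower and 3 higher, with a median of -1.15.

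Promoters of 2 ribosomal protein genes that fell are shown with the letters ACCCNNACA, a core of the binding site of Rap1, the general regulator of these genes. The window is 250 bases before to 50 after the start codon, from RefSeq R64, at chrVII:648858-649157 on the minus strand for RPL11B (-2.02) and chrIV:217350-217649 on the plus strand for RPL35B (-1.97). Capitals mark the motif, which was searched on both strands.
RPL11B: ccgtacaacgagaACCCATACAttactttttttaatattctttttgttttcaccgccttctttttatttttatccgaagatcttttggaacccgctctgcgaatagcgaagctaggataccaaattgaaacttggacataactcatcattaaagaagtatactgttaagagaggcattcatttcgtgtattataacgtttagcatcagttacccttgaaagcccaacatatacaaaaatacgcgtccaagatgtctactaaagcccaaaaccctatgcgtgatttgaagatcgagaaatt
RPL35B: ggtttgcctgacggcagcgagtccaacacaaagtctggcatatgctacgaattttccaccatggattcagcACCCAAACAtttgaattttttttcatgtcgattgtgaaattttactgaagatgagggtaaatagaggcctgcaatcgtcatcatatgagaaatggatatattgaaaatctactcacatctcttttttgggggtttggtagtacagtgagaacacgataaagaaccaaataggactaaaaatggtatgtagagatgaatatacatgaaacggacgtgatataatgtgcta
The motif was in 12 of 139 ribosomal protein promoters (8.63%), in 170 of 6007 promoters of any gene (2.83%), in 2.51% of those of features called higher and in 2.55% of those called lower. Among ribosomal protein genes it was in 8 of 113 that were called lower and in 4 of 26 that were not. So strict a core leaves out most variants of the site, and a promoter without it may still bind the factor.

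Ribosome biogenesis genes, which build and modify the ribosome's RNA and usually follow the ribosomal protein genes, had calls in both directions. Of 110 tested 19 were higher and 15 lower, against 30.7% and 30.0% of all features, with a median of 0.10 (0.02 without features that overlap another, -0.04 without labelled ΔPcf11 replicate 2 and 0.26 without labelled ΔPcf11 replicate 1). NOP6 and the helicase gene DRS1 were the highest (log2 fold change 1.16 ± 0.20 SE, edgeR adjusted p = 6.05e-04 and 1.14 ± 0.13 SE, edgeR adjusted p = 4.90e-05). RRP1 and UTP9 were the lowest (log2 fold change -1.74 ± 0.17 and -1.42 ± 0.24). The list's summed level was 15569.6 to 18508 CPM in the labelled ΔPcf11 libraries, 14566 to 23259 in Pcf11-OE1 and 13656 to 19293 in Pcf11-OE2, which overlap.

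Biogenesis promoters are known for 2 motifs, PAC (GATGAG) and RRPE (AAAAATTT), and those of SPB4 (-1.09), a helicase gene that fell, and EBP2 (0.23), a pre-60S factor that was not called, are shown for comparison with the ribosomal protein promoters. Windows are as above, at chrVI:146885-147184 on the minus strand and chrXI:125509-125808 on the plus strand, and capitals mark either motif on either strand, with overlapping matches run together.
SPB4: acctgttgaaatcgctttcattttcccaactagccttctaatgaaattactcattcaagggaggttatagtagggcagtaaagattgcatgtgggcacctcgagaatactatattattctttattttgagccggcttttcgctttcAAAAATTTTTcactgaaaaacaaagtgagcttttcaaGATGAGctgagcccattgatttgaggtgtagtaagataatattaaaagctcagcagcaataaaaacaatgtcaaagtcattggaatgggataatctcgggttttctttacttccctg
EBP2: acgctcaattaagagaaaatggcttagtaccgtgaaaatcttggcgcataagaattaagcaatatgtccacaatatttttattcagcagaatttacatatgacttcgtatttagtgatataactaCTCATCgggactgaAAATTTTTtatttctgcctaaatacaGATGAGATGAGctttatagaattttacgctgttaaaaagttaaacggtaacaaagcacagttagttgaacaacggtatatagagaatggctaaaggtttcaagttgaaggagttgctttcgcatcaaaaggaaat
PAC was in 93.6% of 110 biogenesis promoters and in 20.4% of all, and RRPE in 84.5% and 14.2%. Features called higher had PAC in 20.3% and RRPE in 14.3% of promoters, and those called lower in 19.4% and 12.4%. Among ribosomal protein promoters the shares were 10.8% and 14.4%. The windows of RPL11B and RPL35B each hold 1 PAC match, left in lower case above, and 0 RRPE matches. Those of TEF1 and CDC60 hold 3 and 1 RRPE matches, also left in lower case, and 0 PAC matches.

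Proteins of the mitochondrial ribosome moved the other way from the cytosolic ones. Of 75 genes 42 were higher and 12 lower, against 30.7% and 30.0% of all features, with a median log2 fold change of 0.54. In 40 of the 75 all overexpression libraries lay above the others, where they did so in 27.2% of all features. The list's summed level, scaled over all RNA-seq libraries, did not separate the groups. It was 10748 to 14808 CPM in the labelled ΔPcf11 libraries, 13694 to 17599 in Pcf11-OE1 and 13478 to 19150 in Pcf11-OE2. The highest labelled ΔPcf11 library thus lay above the lowest library of each overexpression strain. YML6, a large subunit protein, counted 34.6, 37.5 and 33.7 CPM in the labelled ΔPcf11 libraries, 94.9, 129 and 87.7 CPM in Pcf11-OE1 and 85.03, 133 and 109 CPM in Pcf11-OE2. MRPL8 counted 59.7, 67.9 and 61.3 CPM in the labelled ΔPcf11 libraries, 179, 207 and 162 CPM in Pcf11-OE1 and 152, 221 and 208 CPM in Pcf11-OE2. In both genes the groups did not overlap (log2 fold change 1.59 ± 0.17 SE, edgeR adjusted p = 3.08e-05 and 1.58 ± 0.14 SE, edgeR adjusted p = 1.27e-05). MRPL31 went against the list, with 465, 764 and 664 CPM in the labelled ΔPcf11 libraries, 196, 223 and 208 CPM in Pcf11-OE1 and 237, 231 and 219.6 CPM in Pcf11-OE2 (log2 fold change -1.53 ± 0.14 SE, edgeR adjusted p = 1.18e-05), and MRP21 fell by less (log2 fold change -0.83 ± 0.16). The rise was larger with the GC content and length correction, at a median of 0.74 with 54 higher and 3 lower. Translation factors of the cytosol had 10 of 38 higher and 5 lower (median 0.13, and 0.07 without features that overlap another). Aminoacyl-tRNA synthetases had 8 of 20 higher and 2 lower, with a median of 0.26 that turned to -0.05 under that correction and was 0.14 without features that overlap another.

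**Figure D3:**
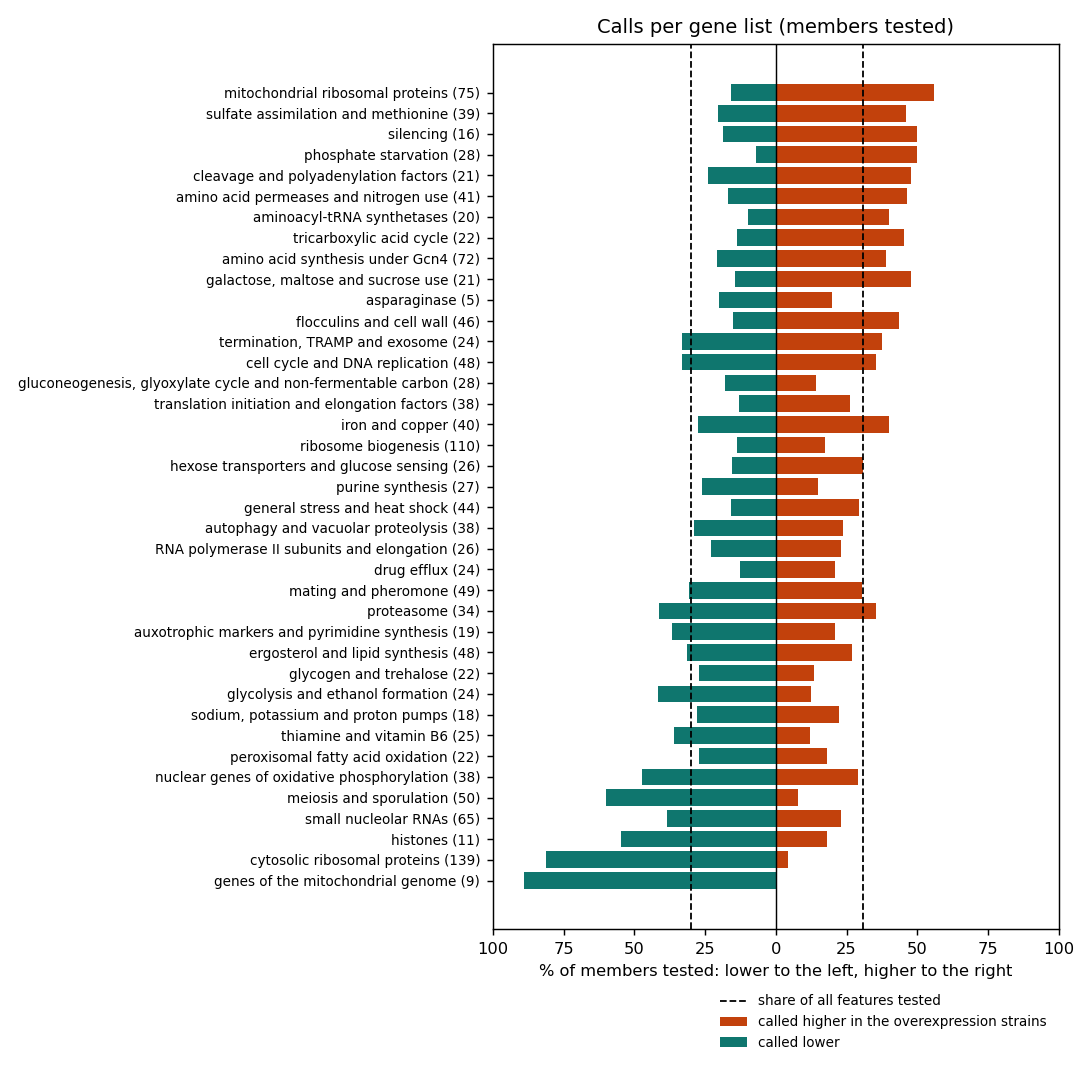
Share of each gene list's tested members (number in parentheses) called higher, to the right, or lower, to the left, in the overexpression strains, ordered by the list's median log2 fold change; dashed lines are the shares over all features tested, 30.7% and 30.0%. Mitochondrial ribosomal proteins are at the top with 42 of 75 higher, cytosolic ribosomal proteins near the bottom with 113 of 139 lower.

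In the machinery that Pcf11 belongs to, other cleavage and polyadenylation factors moved modestly. Of 21 genes 10 were higher, PCF11 included, and 5 lower, with a median of 0.29 (0.13 without features that overlap another). PTA1, a scaffold of the cleavage and polyadenylation factor and a chromosome I gene, counted 49.1, 37.7 and 39.1 CPM in the labelled ΔPcf11 libraries, 142, 137 and 169.7 CPM in Pcf11-OE1 and 80.8, 58.1 and 58.01 CPM in Pcf11-OE2. It was higher in every overexpression library and highest in Pcf11-OE1 (log2 fold change 1.24 ± 0.15 SE, edgeR adjusted p = 6.55e-05). Pcf11's partners in cleavage factor IA were RNA14 (0.29), RNA15 (0.31), both called, and CLP1 (0.21), which was not. The poly(A) polymerase gene PAP1 (0.74) was called higher and the endonuclease gene YSH1 (0.20) was not called. YTH1, an RNA-binding subunit, and REF2, a subunit that also acts at small nucleolar RNAs, fell (log2 fold change -1.17 ± 0.13 SE, edgeR adjusted p = 3.17e-05 and -0.89 ± 0.11 SE, edgeR adjusted p = 8.47e-05). They overlap neighbours by 81.6% and 40.3% of their length. With the GC content and length correction the counts were 7 higher and 3 lower of 21.

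Transcription termination had 9 of 24 members higher and 8 lower. These shares, 37.5% and 33.3%, were near the 30.7% and 30.0% of all features. The median was 0.16, 0.57 without features that overlap another, 0.26 with the GC content and length correction and 0.09 without labelled ΔPcf11 replicate 2. Over the list the log2 fold change had a Spearman correlation of 0.79 with feature length. RAT1, the exonuclease that chases the polymerase after cleavage, counted 116, 106 and 109 CPM in the labelled ΔPcf11 libraries, 281, 269.7 and 239 CPM in Pcf11-OE1 and 202, 253 and 259 CPM in Pcf11-OE2. It was higher in all overexpression libraries (log2 fold change 1.18 ± 0.11 SE, edgeR adjusted p = 1.56e-05). NAB3, part of the pathway that ends short noncoding transcripts, counted 545, 569 and 458 CPM in the labelled ΔPcf11 libraries, 1057, 982 and 933 CPM in Pcf11-OE1 and 1070.5, 1128 and 1191 CPM in Pcf11-OE2. It rose about as much (log2 fold change 1.01 ± 0.11 SE, edgeR adjusted p = 3.38e-05), and its partners SEN1 (0.94) and NRD1 (0.80) were also called higher. Exosome and cofactor genes were among those that fell, with RRP46 (-1.14) and LRP1 (-1.02) the lowest. RNA polymerase II and its elongation factors had 6 of 26 higher and 6 lower, with a median of 0.02 (0.22 with the correction, and -0.02 without Pcf11-OE2 replicate 2). In that list CTK1, a kinase of the polymerase tail, fell from 522 to 785 CPM to 199.9 to 243 CPM (log2 fold change -1.65 ± 0.13 SE, edgeR adjusted p = 6.37e-06), with 31.4% of the feature overlapping a neighbour.

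A second readout of the series, CLIP-seq of Flag-tagged Pcf11 from an overexpressing strain, reads RNA crosslinked to the protein. A peak on the gene's own strand was present in both immunoprecipitations for 321 of 6107 features (5.26%). Features called higher had one in 5.65% (95% Wilson interval 4.70 to 6.79%, 106 of 1875) and those called lower in 5.08% (4.16 to 6.18%, 93 of 1832). The intervals overlap and cover counting error only. The share grew with level, from 2.31% in the lowest tertile of features by mean CPM to 8.89% in the highest, and within the highest tertile it was 10.4% of features called higher and 8.33% of those called lower. Among genes with such a peak, HSP60 (1.94), LEU1 (1.93) and PYC1 (1.73) had some of the highest log2 fold changes and RPL41B (-2.70) and RPS24B (-2.36) some of the lowest. PCF11 had none in both.

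Lists of carbon and energy genes had calls in both directions. The tricarboxylic acid cycle had 10 of 22 genes higher and 3 lower (median 0.24, and 0.14 without features that overlap another). PYC1, which makes oxaloacetate from pyruvate, counted 592, 646 and 509 CPM in the labelled ΔPcf11 libraries, 2101, 2538 and 1723 CPM in Pcf11-OE1 and 1519.7, 1833 and 1931 CPM in Pcf11-OE2. SDH1, a subunit of succinate dehydrogenase, counted 511, 489 and 439 CPM in the labelled ΔPcf11 libraries, 1125, 1302 and 1304 CPM in Pcf11-OE1 and 1361, 1198 and 1261 CPM in Pcf11-OE2. Neither gene showed overlap of the groups (log2 fold change 1.73 ± 0.16 SE, edgeR adjusted p = 1.54e-05 and 1.39 ± 0.11 SE, edgeR adjusted p = 7.42e-06). Nuclear genes of oxidative phosphorylation had 11 of 38 higher and 18 lower, with a median of -0.34 that turned to 0.16 with the GC content and length correction (16 higher, 10 lower) and to 0.11 without overlapping features, and was -0.20 without labelled ΔPcf11 replicate 2. Over the 38 genes the log2 fold change had a Spearman correlation of 0.68 with feature length and of 0.64 with GC content. Among them ATP1 (0.69), COR1 (0.60) and QCR2 (0.85) rose and ATP17 (-1.95), COX12 (-1.87) and QCR10 (-1.66) fell. Cytochrome c from CYC1 rose too (log2 fold change 1.12 ± 0.15 SE, edgeR adjusted p = 1.53e-04), with 84.7% of the feature overlapping. Of 20 genes of the mitochondrial genome matched, 9 passed the filter, and 8 were lower (median -1.54, and -0.49 with 2 lower after that correction, these genes having a median GC content of 22.97%). The small ribosomal RNA 15S_RRNA, for example, fell from 5.86 to 11.2 CPM to 0.859 to 2.12 CPM. COB, AI4 and BI4 were near the floor of counting. Scaled over all 15 RNA-seq libraries, their strain means were 0.34 to 0.38 CPM in labelled ΔPcf11 and 0.08 to 0.14 CPM in the overexpression strains. Mitochondrial RNA of yeast lacks long poly(A) tails.

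Glycolysis and ethanol formation had 10 of 24 genes lower and 3 higher (median -0.15, -0.08 with upper quartile scaling, -0.23 without labelled ΔPcf11 replicate 1, and -0.63 with 15 lower after the GC content and length correction). PDC6, the minor pyruvate decarboxylase, fell from 169.9 to 200.1 CPM to 39.2 to 130.2 CPM (log2 fold change -1.42 ± 0.30 SE, edgeR adjusted p = 0.00218). GPM1, phosphoglycerate mutase, counted 468, 611 and 643 CPM in the labelled ΔPcf11 libraries, 222, 126 and 279.9 CPM in Pcf11-OE1 and 417, 169 and 244 CPM in Pcf11-OE2. It was lower in every overexpression library (log2 fold change -1.25 ± 0.29 SE, edgeR adjusted p = 0.00363). Glucose transport showed opposite changes among its members, with 8 of 26 genes higher and 4 lower and a median of 0.09 that turned to -0.21 under the correction and was 0.02 without labelled ΔPcf11 replicate 2. The high-affinity transporter gene HXT7 counted 1839, 1488 and 2305 CPM in the labelled ΔPcf11 libraries, 8253, 4973 and 4304 CPM in Pcf11-OE1 and 3812, 4441 and 3697 CPM in Pcf11-OE2. With its near-identical neighbour HXT6 it was higher in all 6 libraries (log2 fold change 1.36 ± 0.24 SE, edgeR adjusted p = 7.06e-04 and 1.63 ± 0.23 for HXT6); reads of these copies are hard to assign. HXT14 fell from 18.3 to 30.1 CPM to 2.94 to 6.39 CPM (log2 fold change -2.53 ± 0.16 SE, edgeR adjusted p = 2.96e-06). Gluconeogenesis and the glyoxylate cycle had 4 of 28 genes higher and 5 lower, and a median of 0.14 that turned to -0.24 under the correction, -0.05 without Pcf11-OE1 replicate 3 and -0.02 without Pcf11-OE2 replicate 1. In that list MDH2, the cytosolic malate dehydrogenase of gluconeogenesis, fell from 494 to 527 CPM to 96.02 to 201 CPM (log2 fold change -1.71 ± 0.21 SE, edgeR adjusted p = 7.41e-05).

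Amino acid synthesis under Gcn4, the activator of these genes, had 28 of 72 members higher and 15 lower (median 0.24, and 0.11 after the GC content and length correction). The branched-chain pathway supplied many of those that rose. Its members LEU1, ILV3 (1.27), LEU3 (1.23), LEU2 (0.96), ILV5 (0.81), BAT1 (0.77), ILV2 (0.75) and ILV6 (0.74) were called higher, as were LEU9 (0.71) and ILV1 (0.66), while LEU4 (0.49) and BAT2 (-0.59) were not called; these 12 were picked out after their values were seen. ILV3, dihydroxyacid dehydratase, counted 37.4, 34.8 and 36.6 CPM in the labelled ΔPcf11 libraries, 126, 91.2 and 95.5 CPM in Pcf11-OE1 and 81.9, 70.5 and 69.5 CPM in Pcf11-OE2. LEU2 counted 17.2, 19.00 and 17.7 CPM in the labelled ΔPcf11 libraries, 50.4, 41.1 and 38.8 CPM in Pcf11-OE1 and 31.00, 27.98 and 25.9 CPM in Pcf11-OE2. Both were lowest in the labelled ΔPcf11 libraries and highest in Pcf11-OE1 (log2 fold change 1.27 ± 0.12 SE, edgeR adjusted p = 1.72e-05 and 0.96 ± 0.11 SE, edgeR adjusted p = 4.80e-05), though the difference between the overexpression strains was called for LEU2 and not for ILV3 (edgeR adjusted p = 0.0393 and 0.219). LEU2, HIS3, TRP1 and URA3 are also common selection markers, and the labels do not say which of them the strains carry. ASN1, an asparagine synthetase, went the other way, with 693, 1171 and 618 CPM in the labelled ΔPcf11 libraries, 127, 140.4 and 162 CPM in Pcf11-OE1 and 269, 177 and 245 CPM in Pcf11-OE2. Its labelled ΔPcf11 libraries were all higher (log2 fold change -2.19 ± 0.20 SE, edgeR adjusted p = 1.38e-05). SER2, the last step of serine synthesis, fell as well (log2 fold change -1.88 ± 0.13 SE, edgeR adjusted p = 4.02e-06), with 58.1% overlap. GCN4 itself was not called (-0.21).

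Sulfate assimilation and methionine had 18 of 39 genes higher and 8 lower (median 0.37, and 0.10 with 14 higher and 12 lower after the GC content and length correction). One member counted as higher, SOH1 (1.28), encodes a Mediator subunit and not a sulfur gene. MET30, the ubiquitin ligase subunit that restrains the pathway's activator, counted 168, 158 and 155 CPM in the labelled ΔPcf11 libraries, 449, 419 and 423 CPM in Pcf11-OE1 and 445, 439 and 455 CPM in Pcf11-OE2. SAM3, the S-adenosylmethionine permease, counted 25.5, 28.4 and 21.9 CPM in the labelled ΔPcf11 libraries, 74.6, 74.4 and 78.4 CPM in Pcf11-OE1 and 72.5, 60.3 and 67.6 CPM in Pcf11-OE2. Both had tight replicates and no overlap (log2 fold change 1.45 ± 0.086 SE, edgeR adjusted p = 2.96e-06 and 1.49 ± 0.11 SE, edgeR adjusted p = 5.23e-06). The transporters MUP1 (1.38) and MUP3 (0.69) rose while SUL1 (-0.85) fell. Amino acid permeases and nitrogen genes had 19 of 41 higher and 7 lower (median 0.29, and 0.11 after the correction), with MEP2, an ammonium transporter, at 1.03 ± 0.10 SE, edgeR adjusted p = 2.13e-05. GAP1, the general amino acid permease, varied within strains and fell by 1.00 ± 0.37 (edgeR adjusted p = 0.0399).

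Phosphate starvation genes had 14 of 28 members higher and 2 lower (median 0.35, 0.23 after the GC content and length correction). Polyphosphate synthesis was on the higher side, with VTC1 (0.72), VTC2 (0.59), VTC3 (0.27) and VTC4 (0.69) all called. VTC1 counted 42.8, 57.7 and 49.1 CPM in the labelled ΔPcf11 libraries, 88.6, 97.4 and 79.1 CPM in Pcf11-OE1 and 64.6, 89.1 and 76.7 CPM in Pcf11-OE2. Every overexpression library lay above the 3 others (log2 fold change 0.72 ± 0.14 SE, edgeR adjusted p = 0.00109). PHO11, an acid phosphatase gene with the near-identical copy PHO12, was the highest called member and lies on chromosome I. It counted 2.70, 2.06 and 2.04 CPM in the labelled ΔPcf11 libraries, 4.86, 5.96 and 6.002 CPM in Pcf11-OE1 and 5.09, 3.10 and 3.28 CPM in Pcf11-OE2 (log2 fold change 1.03 ± 0.20 SE, edgeR adjusted p = 0.00146). Other targets of the pathway's activator that were not called were PHO84 (0.38), a phosphate transporter, and PHO5 (0.37), an acid phosphatase. PHO89, a sodium-phosphate cotransporter, fell (log2 fold change -0.80 ± 0.26 SE, edgeR adjusted p = 0.0231). In iron and copper uptake 16 of 40 genes were higher and 11 lower, the median of 0.12 turning to -0.01 under the correction and being 0.06 without labelled ΔPcf11 replicate 1 and 0.19 without replicate 2. FTR1, the iron permease, counted 192, 259.5 and 199 CPM in the labelled ΔPcf11 libraries, 572, 693 and 483 CPM in Pcf11-OE1 and 492, 464 and 611 CPM in Pcf11-OE2 (log2 fold change 1.35 ± 0.16 SE, edgeR adjusted p = 6.48e-05). FRE7, a copper-regulated reductase, rose from 19.9 to 27.8 CPM to 57.5 to 86.03 CPM (log2 fold change 1.62 ± 0.15 SE, edgeR adjusted p = 1.38e-05).

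Of 50 meiosis and sporulation genes 30 were lower and 4 higher, where 30.0% and 30.7% of all features were, with a median of -0.42 (20 lower and 7 higher, median -0.20, after the GC content and length correction). Besides SPO19, OSW2 of the outer spore wall showed the largest fall. It counted 1869, 2482 and 2249.9 CPM in the labelled ΔPcf11 libraries, 286, 319 and 448 CPM in Pcf11-OE1 and 713, 268 and 450.5 CPM in Pcf11-OE2. Its groups did not overlap, and Pcf11-OE2 replicate 1 was the highest of the overexpression libraries (log2 fold change -2.43 ± 0.26 SE, edgeR adjusted p = 3.06e-05). The master regulator genes IME1 (-1.08) and NDT80 (-0.57) were called lower. DIT2, of the dityrosine layer of the spore wall, went against the list at low level, with 5.83 to 8.09 CPM against 10.9 to 17.3 CPM (log2 fold change 0.97 ± 0.17 SE, edgeR adjusted p = 6.85e-04). The list's summed level was 4374 to 5386 CPM in the labelled ΔPcf11 libraries and 2222 to 2987 CPM in the 6 overexpression libraries; it was 4403 to 4673 CPM in WT and 2490 to 3271 CPM in Pcf11-AARR.

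Of 11 histone genes 6 were lower and 2 higher, with a median of -0.84 that shrank to -0.19, with 5 in each direction, after the GC content and length correction. HTA1, for histone H2A, counted 506, 646 and 594 CPM in the labelled ΔPcf11 libraries, 192, 140.3 and 160.3 CPM in Pcf11-OE1 and 137, 157 and 147 CPM in Pcf11-OE2. HTB2, for H2B, counted 543, 764 and 754 CPM in the labelled ΔPcf11 libraries, 164, 144 and 201 CPM in Pcf11-OE1 and 228, 159.9 and 176 CPM in Pcf11-OE2. Both were low in all overexpression libraries (log2 fold change -1.91 ± 0.12 SE, edgeR adjusted p = 2.96e-06 and -1.94 ± 0.16 SE, edgeR adjusted p = 7.66e-06), while HTB1 (-0.18) was not called, and 70.3% of HTB2 overlaps a neighbour. HHO1, the linker histone, rose (log2 fold change 0.86 ± 0.10 SE, edgeR adjusted p = 5.44e-05). Histone messages have close paralogs, and their reads are uncertain in the same way as those of ribosomal protein copies. Cell cycle and replication genes had 17 of 48 higher and 16 lower (median 0.14, and 0.08 without features that overlap another). POL1, the catalytic subunit of DNA polymerase alpha, rose to 40.6 to 54.4 CPM from 16.6 to 19.5 CPM (log2 fold change 1.37 ± 0.12 SE, edgeR adjusted p = 9.63e-06). RFA3, the smallest subunit of replication protein A, fell to 12.7 to 21.3 CPM from 56.9 to 93.8 CPM (log2 fold change -2.26 ± 0.19 SE, edgeR adjusted p = 9.64e-06).

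Several lists had shares near the 30.7% higher and 30.0% lower of all features. Among them were mating and pheromone response (15 of 49 higher, 15 lower) and autophagy (9 of 38 higher, 11 lower). So were cell cycle and replication (35.4% higher, 33.3% lower), ergosterol and lipid synthesis (27.1%, 31.25%) and transcription termination (37.5%, 33.3%). The proteasome had 12 of 34 higher and 14 lower (35.3%, 41.2%). In flocculins and cell wall genes 20 of 46 were higher and 7 lower (median 0.21, 0.05 after the correction and 0.12 without overlapping features), and in silencing genes 8 of 16 were higher and 3 lower (median 0.35, 0.18 after the correction and 0.17 without overlapping features). General stress and heat shock genes had 13 of 44 higher and 7 lower, a median of 0.06 that turned to -0.14 under the correction and to -0.03 without Pcf11-OE2 replicate 1. SSA4, a stress-induced Hsp70, rose from 254 to 297 CPM to 488 to 1209.5 CPM (log2 fold change 1.48 ± 0.28 SE, edgeR adjusted p = 0.00113), and HOR7 (-2.69) was the lowest of that list. In the list of autophagy and vacuolar proteolysis, PBI2, a vacuolar protease inhibitor, fell from 3946 to 6717 CPM to 872 to 1612 CPM (log2 fold change -2.21 ± 0.19 SE, edgeR adjusted p = 9.97e-06). Small nucleolar RNAs had 25 of 65 lower and 15 higher, and their median of -0.45 turned to 0.52 under the correction and was -0.27 without labelled ΔPcf11 replicate 2. Of the mating type markers, a-specific MFA1, which lies within another feature, counted 138 to 270 CPM over the 9 libraries and STE2 15.4 to 33.5 CPM, against 10.2 to 21.8 CPM for MF(ALPHA)1 and 5.30 to 12.3 CPM for STE3. Markers of both mating types thus had reads in all libraries, STE2 was called higher (log2 fold change 0.50 ± 0.17 SE, edgeR adjusted p = 0.0257) and MF(ALPHA)1 lower (log2 fold change -0.58 ± 0.11 SE, edgeR adjusted p = 0.00141).

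Chromosome I stood apart from every other nuclear chromosome. Of its 91 features tested 66 were called higher and 1 lower, with a median log2 fold change of 0.78, whereas medians of the other 15 nuclear chromosomes ran from -0.07 to 0.12. The strains differed: in Pcf11-OE1 76 of the 91 were higher and 0 lower in edgeR than in the labelled ΔPcf11 libraries (0 lower also at an unadjusted p under 0.05 and in DESeq2), with a median of 1.31, and in Pcf11-OE2 40 were higher and 13 lower, with a median of 0.33. Set against the mean of the 9 libraries, the chromosome's median was 0.77, 0.70 and 0.70 in Pcf11-OE1, -0.20, -0.19 and -0.25 in Pcf11-OE2 and -0.38, -0.53 and -0.55 in the labelled ΔPcf11 libraries. The 3 strains did not overlap. Of the 83 features that differed between Pcf11-OE1 and Pcf11-OE2, 63 lie on chromosome I, and all 63 were higher in Pcf11-OE1; the median over the chromosome was 0.97, a factor of 1.96. Without this chromosome the edgeR fit, added after the data were seen, called 4 features higher and 0 lower between the overexpression strains, where 171 were lower at an unadjusted p under 0.05 and DESeq2 called 25 lower.

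**Figure D4:**
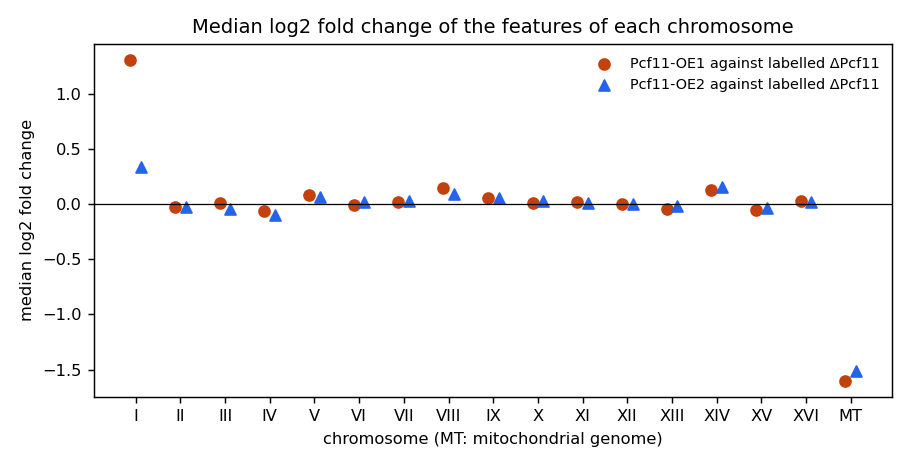
Median log2 fold change of the tested features of each chromosome, for Pcf11-OE1 (circles) and Pcf11-OE2 (triangles) against the libraries labelled ΔPcf11; both use the same 3 control libraries. Chromosome I is at 1.31 and 0.33, the mitochondrial genome (MT, 9 features, some near the floor of counting) at -1.60 and -1.52, and the other chromosomes lie near 0.

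The single genes of chromosome I given here were highest in Pcf11-OE1, while the order of the other strains varied. FUN12, the translation initiation factor eIF5B, counted 885, 676 and 831 CPM in the labelled ΔPcf11 libraries, 3461, 3175 and 2434 CPM in Pcf11-OE1 and 1037, 1366 and 1338 CPM in Pcf11-OE2. CLN3, a G1 cyclin, counted 14.1, 12.6 and 15.3 CPM in the labelled ΔPcf11 libraries, 53.1, 58.3 and 45.1 CPM in Pcf11-OE1 and 22.7, 26.04 and 22.4 CPM in Pcf11-OE2. In both genes the 3 strains did not overlap, Pcf11-OE1 being highest. The difference between the overexpression strains was 1.28 ± 0.18 SE, edgeR adjusted p = 0.00521 for FUN12 and 1.14 ± 0.13 SE, edgeR adjusted p = 0.00117 for CLN3. SEN34, a subunit of the tRNA splicing endonuclease, counted 24.4, 37.3 and 30.8 CPM in the labelled ΔPcf11 libraries, 92.8, 106 and 86.6 CPM in Pcf11-OE1 and 34.4, 44.02 and 38.9 CPM in Pcf11-OE2. FUN30, a chromatin remodeller, counted 41.4, 26.8 and 28.9 CPM in the labelled ΔPcf11 libraries, 89.7, 71.8 and 61.2 CPM in Pcf11-OE1 and 22.6, 35.3 and 28.5 CPM in Pcf11-OE2. In these genes Pcf11-OE1 alone stood above, while Pcf11-OE2 overlapped the labelled ΔPcf11 libraries. LTE1, which acts in mitotic exit, and the GTPase gene RBG1 were also higher in Pcf11-OE1 than in Pcf11-OE2 (Pcf11-OE1 minus Pcf11-OE2 1.29 ± 0.14 and 1.39 ± 0.25). Their log2 fold changes of Pcf11-OE2 over labelled ΔPcf11 were -0.20 and -0.05. On other chromosomes the differences between the overexpression strains were few and included 0.88 ± 0.15 for LEU1 and 0.62 ± 0.12 for LEU2 (edgeR adjusted p = 0.0161 and 0.0393). THI5, a thiamine precursor gene with near-identical copies, and the wall protein gene NCW2 were lower in Pcf11-OE1 than in Pcf11-OE2 (log2 fold change -0.91 ± 0.17 and -0.88 ± 0.18, edgeR adjusted p = 0.0265 and 0.0443). The edgeR fit without chromosome I called 0 features lower in Pcf11-OE1, so neither call was kept there.

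Base composition moved with the comparison over the whole genome. Across 6102 features with coordinates the log2 fold change had a Spearman correlation of 0.41 with GC content and of 0.24 with feature length, a description over genes that share the same libraries. With features cut into 6 groups of like size by GC content, in the lowest group the median was -0.51 with 609 of 1018 called lower, and in the highest it was 0.39 with 535 of 1017 called higher. Pcf11-OE1 and Pcf11-OE2 had like medians in each group, -0.50 and -0.52 in the lowest and 0.39 and 0.39 in the highest. Features called lower were shorter (median 1189.5 bases) than those called higher (1738 bases), and 46.6% of them overlapped another feature by more than 25% of their length, against 28.9% of those called higher and 36.5% of all. The part of composition in the gene group results was not tested beyond the correction for GC content and length. After that correction 1381 of the 1875 features called higher were still called higher and 23 were called lower, and of 1831 called lower that could be fitted 1290 were still lower and 29 higher.

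The ribosomal lists were also described within these groups. Cytosolic ribosomal protein genes had medians of -1.55, -1.19, -0.92, -0.69, -0.36 and -0.56 from the lowest to the highest GC content, each below that of all features in the same group. Mitochondrial ribosomal protein genes had medians of -0.56, 0.42, 0.51, 0.66, 0.83 and 1.32, above all features in each group but the lowest. Ribosome biogenesis genes stayed between 0.03 and 0.36 throughout. The last groups hold few members, 7, 10 and 4 in the highest.

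**Figure D5:**
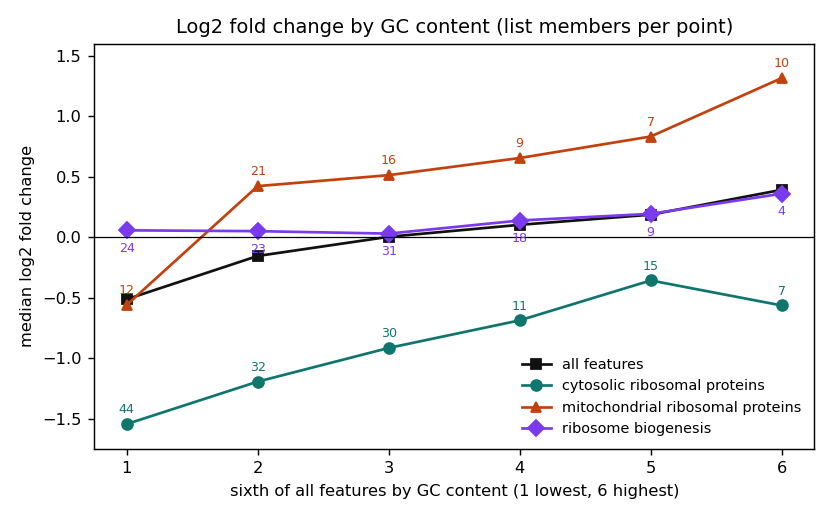
Median log2 fold change against GC content, with all features cut into 6 groups of like size (1 lowest, 6 highest), for all features and 3 gene lists; small numbers give the list members behind a point. All features climb from -0.51 to 0.39, cytosolic ribosomal proteins lie below them in each group, and mitochondrial ribosomal proteins above them in all but the lowest.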

How the data were processed

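RNA-seq of 3 strains of S. cerevisiae, 3 libraries each, was analysed from deposited tables. The authors deposited raw counts per feature, from reads trimmed with fastp 0.23.0 per the submitters' processing notes. Libraries were made with a stranded kit per the labels' protocols. What aligner, counter, strand setting and annotation were used is not given in the sources used here. Both count tables (6863 and 6943 features) were joined by feature identifier, the WT columns being equal in both. The 2 gene names turned into dates were restored, and 454 numbered features with 0.872% to 1.38% of the reads were left out. Positions are those of assembly R64.

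Counts were tested in 1 fit over the 9 libraries with edgeR 4.0.16 in R 4.3.3 (TMM scaling, filterByExpr, robust quasi-likelihood F test, two-sided, 1 mean per strain), with Benjamini-Hochberg adjusted p at 0.05 over 6107 features. Replicates differed by 66.7 to 378 times counting noise (chi-square per degree of freedom). The fit was run on simulated counts of 6092 features. It recovered 52 of 100 changes of 1.5-fold and 95 of 100 of 2-fold, with 9 false calls. The simulation held no trend with GC content, no difference between count tables and far fewer changed features than were called here. It does not cover those conditions. Alternatives changed the scaling, the filter, the tool (DESeq2 1.42.0), the replicate block, the grouping, the libraries kept, overlapping features and the threshold, 1 at a time. A fit without chromosome I and a correction for GC content and length were added after the data were seen; the correction subtracts from each library a smooth trend over both properties as offsets.

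Per the file headers, the authors' CLIP peak lists give each peak's height as an unscaled signal, the highest read depth in it, for each immunoprecipitation against its input; only a peak's presence on a gene's strand was used, from both libraries. Genes named are PCF11, the 12 highest and 12 lowest log2 fold changes among called features with a standard name, at least 10 CPM on the higher side and no overlap of libraries, up to 4 members of each list (the highest and lowest called) and up to 5 in each direction between the overexpression strains; others are named to fill a pathway and were chosen after their values were seen. The 39 gene lists, the groups and these rules were chosen with earlier results of these data known, so their directions are not independent evidence. Exact tests used scipy 1.17.1.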

Additional observations from a re-analysis of the deposited data

Results flagged for a closer look

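Of 175 named genes 16 differed between the overexpression strains in the edgeR test of that difference (adjusted p under 0.05), and 10 of them lie on chromosome I. Values are log2 fold changes of Pcf11-OE1 over Pcf11-OE2. On chromosome I they were 1.63 for the small nucleolar RNA snR18, which lies within another feature, 1.39 for RBG1, 1.36 for FUN30, 1.29 for LTE1, 1.28 for SEN34, 1.28 for FUN12, 1.19 for PTA1, 1.14 for CLN3, 1.01 for FLO9 and 0.91 for ATS1. On other chromosomes they were 2.95 for PCF11, 0.98 for SIR4, which overlaps it, 0.88 for LEU1 and 0.62 for LEU2. THI5 and NCW2 were lower in Pcf11-OE1, at -0.91 and -0.88, and neither was called in the edgeR fit without chromosome I. Other than PCF11, named genes were chosen among features called against the labelled ΔPcf11 libraries, so calls there say nothing further about these 16.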

How the results depend on the processing

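Of the features called against the libraries labelled ΔPcf11, none was called in the other direction under any alternative other than the GC content and length correction, where 23 of 1875 called higher became lower and 29 of 1831 called lower became higher (19 and 30 with the block). PCF11 was called in each one that kept it (it is left out where overlapping features are, since SIR4 covers 28.1% of it). Leaving out 1 library at a time gave 1500 to 1885 features higher and 1519 to 1900 lower. Without overlapping features 1150 were higher and 1121 lower, of which fewer were tested (Pcf11-OE1 1072 and 1022, Pcf11-OE2 982 and 971, ribosomal proteins 75 lower). Between Pcf11-OE1 and Pcf11-OE2, the 73 higher calls became 47 at an adjusted p of 0.01, 4 without chromosome I and 48 to 72 without 1 library each, the lowest without Pcf11-OE2 replicate 3. The 10 lower calls became 36 with DESeq2, 16 with all 15 libraries, 0 at an adjusted p of 0.01 (22 with DESeq2), 0 without chromosome I (25 with DESeq2, and 171 in edgeR at an unadjusted p under 0.05) and 1 to 10 without 1 library each; the cause was not tested. The chromosome I median of 0.78 was 0.85 with upper quartile scaling, 0.89 with the overexpression libraries as 1 group, 0.58 with the GC content and length correction and 0.57 with that and the block. This correction turned the transporter genes TRK2, at 0.54, to -0.093 (-0.11 with the block) and VNX1, at 0.46, to -0.18 (-0.18), and the list medians named in the report. Of 175 named genes, 163 to 175 kept their call without 1 library each. Same-numbered libraries deviated together in some pairs only (r from -0.37 to 0.47), so the replicate numbers do not pair them; with the number as a block 1814 features were higher and 1781 lower, and the lower calls between the overexpression strains were 2 (3 with the correction). The count table and the strain group cannot be told apart, and strand use in counting is unknown. The smallest change that could be detected at each level was not tested.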

Other observations

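Further lists had calls in both directions, given as members higher, members lower and the median log2 fold change. Thiamine and vitamin B6 genes had 3 and 9 of 25 (-0.23), with THI4, which makes the thiazole ring, falling to 6.15 to 15.6 CPM from a lowest value of 25.3 CPM in the labelled ΔPcf11 libraries (log2 fold change -1.81 ± 0.22 SE, edgeR adjusted p = 7.92e-05). Ergosterol and lipid synthesis had 13 and 15 of 48 (-0.08, and -0.17 without features that overlap another). In that list INO2, the activator of phospholipid genes, counted 25.9, 29.9 and 22.8 CPM in the labelled ΔPcf11 libraries, 75.6, 93.8 and 71.4 CPM in Pcf11-OE1 and 72.8, 87.01 and 95.4 CPM in Pcf11-OE2. It was higher in all 6 overexpression libraries (log2 fold change 1.66 ± 0.14 SE, edgeR adjusted p = 9.85e-06), while the sterol desaturase gene ERG5 fell (log2 fold change -1.22 ± 0.29 SE, edgeR adjusted p = 0.00458). Peroxisomal fatty acid oxidation had 4 and 6 of 22 (-0.33, -0.096 without labelled ΔPcf11 replicate 1 and -0.51 without Pcf11-OE2 replicate 1), its enzymes IDP3 (-1.56) and ECI1 (-1.45) falling and the import genes PEX13 (0.67) and PEX5 (0.60) rising.

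Ion pumps and channels had 4 and 5 of 18 (-0.17, and -0.10 without Pcf11-OE2 replicate 2). KCH1, a potassium transporter gene, counted 29.2, 42.5 and 34.3 CPM in the labelled ΔPcf11 libraries, 6.49, 8.204 and 7.37 CPM in Pcf11-OE1 and 4.22, 5.27 and 5.58 CPM in Pcf11-OE2. It was low in every overexpression library (log2 fold change -2.54 ± 0.14 SE, edgeR adjusted p = 2.96e-06). Drug efflux had 5 and 3 of 24 (0.01, and -0.04 with the GC content and length correction). QDR2 (1.40) was its highest member, and PDR5 was at -1.21, where the lowest value of the list was -1.34. Glycogen and trehalose genes had 3 and 6 of 22 (-0.12, -0.25 with the correction and -0.05 without Pcf11-OE1 replicate 1), among them TSL1 (1.05) and GAC1 (-1.59). Galactose, maltose and sucrose genes had 10 and 3 of 21 (0.23, and -0.02 with the correction), purine genes 4 and 7 of 27 (0.07, and -0.20 with the correction), selection markers and pyrimidine genes 4 and 7 of 19 (-0.06, and -0.24 without features that overlap another) and asparaginase genes 1 and 1 of 5 (0.21, and 0.04 with the correction). HOR7, a small stress-induced membrane protein gene of the general stress list, fell from 2721 to 4083 CPM to 369 to 585 CPM (log2 fold change -2.69 ± 0.17 SE, edgeR adjusted p = 2.96e-06).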
